A study of Mus musculus with 18 samples.

Results

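The genes described here are interferon-stimulated effectors and RNA sensors of the mouse, taken as a list of 39 symbols by role. Of these, 38 had rows in both deposited count tables and 1 is not analysed here. Rows of 1 symbol were summed, and each table held 24059 symbols in all. They were measured by RNA-seq in 18 libraries of bone marrow-derived macrophages from C57BL/6J mice, grown in medium conditioned by L929 cells, in 6 groups of 3 libraries. The second table held cells loaded with cholesterol-containing liposomes, then given reconstituted high-density lipoprotein (rHDL, the preparation CSL111) and then LPS (loaded rHDL cells). It also held cells loaded and given LPS (loaded cells), cells given rHDL and then LPS (rHDL cells), and cells given LPS alone (LPS-only cells). The first table held cells given LPS (LPS cells) and untreated cells. LPS is the bacterial lipopolysaccharide that activates Toll-like receptor 4. The rHDL was left on for 20 h and washed off before LPS, and every group of the second table received LPS. LPS dose and duration were not given in the sources used here. They also do not say if the 3 libraries of a group came from separate mice or cultures, so a p-value measures only the spread between these libraries, which may be technical.

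Type I interferon, released by macrophages once Toll-like receptor 4 signals through its adaptor TRIF, binds its receptor on the same and neighbouring cells and signals to the nucleus. Transcription factors, STAT2 and IRF9 among them, then bind the interferon-stimulated response element and raise a set of genes that hinder viral replication. The set includes cytosolic RNA sensors, enzymes that deplete nucleotides or degrade nucleic acids, the ubiquitin-like modifier ISG15 with its conjugating and removing enzymes, ADP-ribosyltransferases and proteins of nuclear bodies.

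Libraries of the first table held 11450243 to 16835472 counts, and those of the second 9464916 to 15607889. The counts hold only reads that overlap a single row of the annotation: 6698 rows share every exon base with another row, and 6697 of these had 0 counts in every library. Of the 38 members, 20 had all their exon bases to themselves, 26 had at least 50%, and 11 had under 20%, so that their counts come from a small part of the transcript. Those 11 are Mx1, Mx2, Ifih1, Xaf1, Ifi47, Trim21, Trex1, Daxx, Lgals9, Pml and Nmi. Mx2 (9 own exon bases), Nmi (40) and Trim21 (69) had too few counts to be tested in either table, which left 35 members. Mx2 had 0 or 1 count in each of the 18 libraries, Nmi 0 to 3 and Trim21 0 to 24. Ifitm3, Ifi27l2a, Trim30a and Slfn5 belong to families with similar copies, and how reads that map to several places were counted is not given in the sources used here, so their levels are uncertain in that respect.

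Markers of macrophages and of other cell types were read first. The summed level of 10 macrophage markers was 31730 to 37330 CPM in LPS cells, against 27920 to 33030 CPM in untreated cells, with Itgam at 0 in every group. Plasmacytoid dendritic cells, a specialised source of interferon, had a marker sum of at most 2.17 CPM over 4 genes in any library of either table. Sums were at most 8.30 CPM for 6 neutrophil markers and 0.589 CPM for 7 markers of T, NK and B cells. Among the neutrophil markers S100a9 was at 0 in every group, as Itgam was. Nearly all rows that share every exon base with another row had 0 counts, so a marker at 0 need not be absent. Markers of conventional dendritic cells summed to 576 to 739 CPM in LPS cells, against 356 to 506 CPM in untreated cells.

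Promoter sequence was compared next. RefSeq promoter windows of GRCm38.p6, which run from 250 bases before to 50 bases after a start, were at hand for 28 of the 38 members. The core of the interferon-stimulated response element, spelled GAAA, any 2 bases and GAAA again and searched on both strands, stood in a window of 11 of the 28 (39.3%), against 3.99% of 27025 genes in the whole table. The gamma-activated sequence TTCNNNGAA stood in 17.9% of the member genes, against 9.55% of all genes. The kappa B motif, GGGA, any 2 bases and TTCC, stood in 7.14%, against 1.63%. Matches of different motifs were counted separately even where they overlap, and a match is a run of letters, not a known binding site.

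The windows of 6 members are printed. They are the 4 with a core before the start and the highest CPM in LPS-only cells among members with a single window, and 2 members without a core. Rsad2 (chr12:26456453-26456702, minus strand), Slfn5 (chr11:82951852-82952101, plus strand), Isg15 (chr4:156200819-156201068, minus strand) and Bst2 (chr8:71537473-71537722, minus strand) hold the core. Ifi44 (chr3:151749960-151750160, minus strand) fell most with rHDL among these members, and Trim25 (chr11:88999153-88999402, plus strand) had the highest CPM of those not called with rHDL. Each runs 5′ to 3′ on its gene's strand, and capitals mark this core or its reverse complement. All end at the start used for the windows except Ifi44. Its last bases before that start, which the deposited annotation places inside the gene, are left out, so 201 bases are printed.
Rsad2: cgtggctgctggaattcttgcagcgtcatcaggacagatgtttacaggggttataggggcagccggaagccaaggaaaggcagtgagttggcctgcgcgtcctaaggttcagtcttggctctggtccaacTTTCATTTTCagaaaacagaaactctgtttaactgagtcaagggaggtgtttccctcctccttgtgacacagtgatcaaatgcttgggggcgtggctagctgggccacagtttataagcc
Slfn5: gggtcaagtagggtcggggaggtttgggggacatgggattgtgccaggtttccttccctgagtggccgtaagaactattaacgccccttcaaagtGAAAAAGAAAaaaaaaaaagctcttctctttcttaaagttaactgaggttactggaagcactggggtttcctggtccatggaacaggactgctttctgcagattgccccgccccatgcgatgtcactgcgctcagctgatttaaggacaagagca
Isg15: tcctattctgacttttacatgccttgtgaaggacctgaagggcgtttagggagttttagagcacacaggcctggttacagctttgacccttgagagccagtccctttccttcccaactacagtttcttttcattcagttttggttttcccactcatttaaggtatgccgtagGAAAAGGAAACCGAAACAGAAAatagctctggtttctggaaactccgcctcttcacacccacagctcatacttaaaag
Bst2: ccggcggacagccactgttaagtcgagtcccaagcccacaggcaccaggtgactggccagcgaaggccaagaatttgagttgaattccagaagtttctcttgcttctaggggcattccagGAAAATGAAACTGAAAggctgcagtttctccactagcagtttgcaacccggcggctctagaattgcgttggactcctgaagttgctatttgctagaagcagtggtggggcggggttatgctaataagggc
Ifi44: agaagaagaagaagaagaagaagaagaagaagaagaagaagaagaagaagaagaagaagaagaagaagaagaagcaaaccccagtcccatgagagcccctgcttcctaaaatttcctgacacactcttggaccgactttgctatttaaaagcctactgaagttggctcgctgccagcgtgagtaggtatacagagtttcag
Trim25: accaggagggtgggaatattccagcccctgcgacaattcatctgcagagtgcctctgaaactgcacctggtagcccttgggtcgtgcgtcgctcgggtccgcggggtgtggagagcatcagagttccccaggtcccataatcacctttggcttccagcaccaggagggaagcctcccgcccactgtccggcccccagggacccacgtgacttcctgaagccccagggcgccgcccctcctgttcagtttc
In Isg15, 3 overlapping cores began 78, 72 and 66 bases before the start. Bst2 had 2 overlapping cores, at 130 and 124 bases, Slfn5 had 1 at 155 bases, and Rsad2 had 1 at 120 bases on the other strand. The windows of Ifi44 and Trim25 held no such run of letters.

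Several members are neighbours in the genome. Rsad2 (mm10 chr12:26442743-26456452, minus strand) and Cmpk2 (chr12:26469215-26479837, plus strand) start 12763 bases apart and are read away from each other. Parp9 (chr16:35938470-35972621, plus strand) and Dtx3l (chr16:35926515-35939027, minus strand) start 557 bases apart and overlap, and Parp14 starts 67088 bases from Parp9. The bases that Parp9 and Dtx3l share would be left out of both counts if the counting ignored strand. Whether the counting used strand is not given in the sources used here.

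LPS against untreated cells gives the members' response to LPS. All 35 tested members were higher in LPS cells by edgeR's quasi-likelihood test, which called 72.9% of 9576 genes, 35.3% as higher. A call is an adjusted p under 0.05 over all genes tested. Their median log2 fold change was 3.43, against -0.06 over all genes tested, and single members ranged from 0.41 to 6.62. In 34 of the 35 every LPS library was above every untreated library, as was so for 36.8% of all genes. Of the 35, 30 also passed the filter on low counts in untreated cells alone. Isg20, Ifi47, Trex1, Lgals9 and Pml passed only through their counts in LPS cells, so the filter itself favoured a rise in them.

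**Figure D1:**
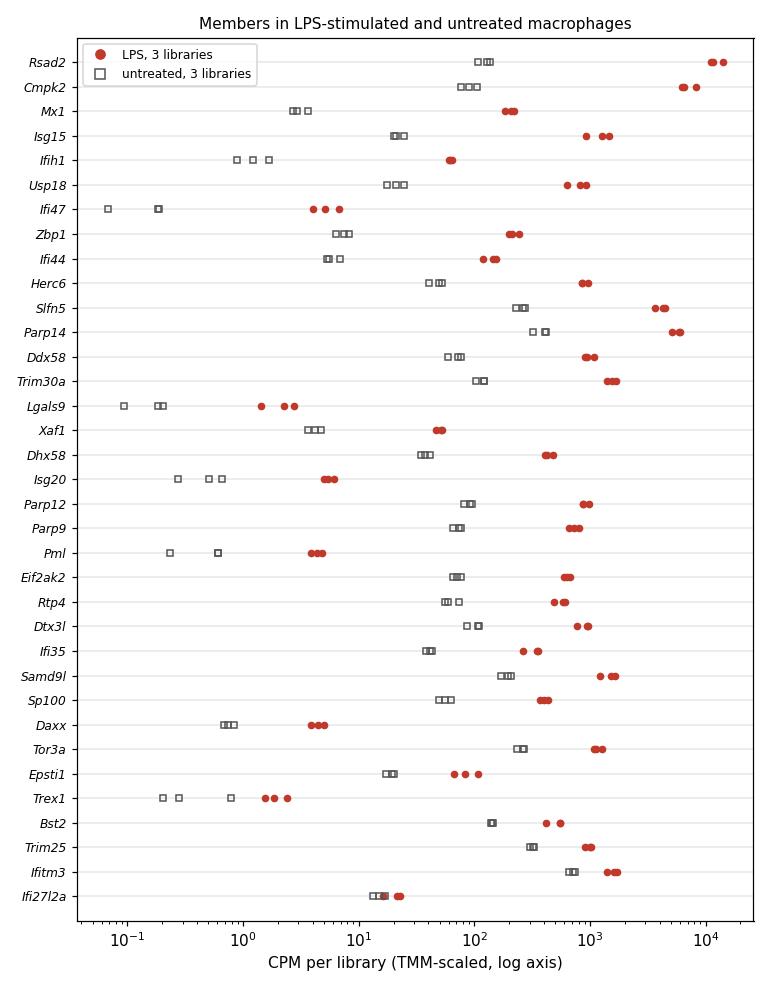
Each row is 1 of the 35 tested members and each point 1 library, on a log axis of CPM (counts scaled to library size by TMM). Filled circles are the 3 LPS libraries and open squares the 3 untreated libraries, with members ordered by fold change. Ifi27l2a, in the lowest row, is the member whose groups overlap.

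Among the RNA and DNA sensors, all 4 rose. Values are given in the order of the replicates. Ddx58, which encodes the RNA sensor RIG-I, had 949.8, 904 and 1085 CPM in LPS cells, against 77.4, 72.5 and 59.3 CPM in untreated cells. Ifih1, the RNA sensor MDA5, had 60.7, 61.3 and 64.5 CPM in LPS cells, against 1.67, 1.21 and 0.884 CPM in untreated cells, from 2.7% of its exon bases. Dhx58, the regulator of both known as LGP2, had 411, 425 and 479.8 CPM in LPS cells, against 41.5, 37.7 and 34.6 CPM in untreated cells. Zbp1, a sensor of Z-form nucleic acids that can start necroptosis, had 210.1, 200.4 and 243 CPM in LPS cells, against 7.46, 8.20 and 6.39 CPM in untreated cells. No library of 1 group reached into the other for any of the 4. Ifih1 had the largest log2 fold change of the 4 (5.58 ± 0.15, edgeR adjusted p = 1.29e-10), followed by Zbp1 at 4.88 ± 0.12, Ddx58 at 3.81 ± 0.12 and Dhx58 at 3.53 ± 0.10. Behind the ± stands the standard error of a log2 fold change, with n = 3 libraries a group.

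The largest changes were among enzymes and effectors. Rsad2, which encodes viperin, the enzyme that makes a chain-terminating ribonucleotide, had 11141, 11465 and 14050.3 CPM in LPS cells, against 136, 129 and 108 CPM in untreated cells. Its neighbour Cmpk2, a mitochondrial nucleotide kinase, had 6266, 6465 and 8226 CPM in LPS cells, against 106, 90.4 and 76.4 CPM in untreated cells. These 2 genes had log2 fold changes of 6.62 ± 0.15 and 6.26 ± 0.17 (edgeR adjusted p = 4.94e-11 and 1.39e-10). Mx1, a dynamin-like GTPase that blocks influenza virus in mice with an intact gene, had 206, 185 and 221 CPM in LPS cells, against 3.61, 2.70 and 2.92 CPM in untreated cells, a log2 fold change of 6.04 ± 0.13 (edgeR adjusted p = 2.72e-11). C57BL/6 mice carry a Mx1 allele with a deletion and make no functional protein, and the Mx1 counts rest on 15.6% of the exon bases. Eif2ak2, the RNA-activated kinase PKR that halts translation, had 626, 594 and 676 CPM in LPS cells, against 77.1, 70.1 and 65.9 CPM in untreated cells. Samd9l, a restriction factor of poxviruses, had 1529, 1222 and 1631 CPM in LPS cells, against 206, 197 and 170.4 CPM in untreated cells. Isg20, an exonuclease, had 4.97, 5.40 and 6.07 CPM in LPS cells, against 0.510, 0.652 and 0.272 CPM in untreated cells, and its untreated libraries held 11, 14 and 4 counts.

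The membrane effectors were already abundant without LPS. Bst2, tetherin, which holds budding virus at the cell surface, had 415, 545 and 548 CPM in LPS cells, against 142, 140.3 and 146 CPM in untreated cells. Ifitm3, which hinders fusion of viruses in endosomes, had 1415, 1597 and 1711 CPM in LPS cells, against 710.2, 664 and 747 CPM in untreated cells. Both groups were apart for each gene, and the log2 fold changes were 1.81 ± 0.11 for Bst2 and 1.16 ± 0.09 for Ifitm3 (edgeR adjusted p = 5.63e-08 and 6.48e-07), small beside the median of the members. Per kilobase of own exon bases, where genes can be set side by side, Ifitm3 had 2429 CPM in LPS cells and 1091 CPM in untreated cells. On the same scale Rsad2 had 3228 CPM in LPS cells and 32.8 CPM in untreated cells. Ifitm3 and Bst2 thus held the first 2 places among the 26 members with at least 50% own bases in untreated cells, and Rsad2 held the first place in LPS cells, with Ifitm3, Cmpk2 and Isg15 after it.

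The ISG15 system rose with one exception in size. Isg15, the modifier itself, had 917, 1472 and 1260.5 CPM in LPS cells, against 24.9, 21.1 and 20.3 CPM in untreated cells. Usp18, the protease that removes it and also damps the interferon receptor, had 634, 821 and 917 CPM in LPS cells, against 24.6, 21.0 and 17.4 CPM in untreated cells. Herc6, the ligase that attaches ISG15 in mice, had 859.7, 852 and 958 CPM in LPS cells, against 49.8, 52.5 and 40.5 CPM in untreated cells. Isg15 and Usp18 changed by 5.78 ± 0.18 and 5.23 ± 0.17 on the log2 scale, and Herc6 by 4.22 ± 0.11 (edgeR adjusted p = 4.44e-10, 4.87e-10 and 1.39e-10). Trim25, a ubiquitin ligase reported to act on RIG-I, had 1006, 903 and 1028 CPM in LPS cells, against 331, 319 and 305 CPM in untreated cells. Its log2 fold change of 1.62 ± 0.08 (edgeR adjusted p = 1.34e-08) was the third smallest of the 35.

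The ADP-ribosylation genes also rose. Parp9, a macrodomain protein, had 732, 654 and 797 CPM in LPS cells, against 76.0, 73.6 and 65.1 CPM in untreated cells. Dtx3l, its ubiquitin ligase partner, had 941, 776 and 954 CPM in LPS cells, against 109, 107 and 86.1 CPM in untreated cells. Parp14, a mono-ADP-ribosyltransferase, had 6013, 5151 and 5921 CPM in LPS cells, against 419.7, 408 and 321 CPM in untreated cells. Their log2 fold changes were 3.34 ± 0.10, 3.14 ± 0.12 and 3.89 ± 0.13, and that of Parp12, an enzyme of the same family, was 3.35 ± 0.09, with edgeR adjusted p of at most 1.53e-09.

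Nuclear body genes, Trex1 and Lgals9 rose as well. Sp100 had 403, 368 and 431 CPM in LPS cells, against 62.4, 55.8 and 49.5 CPM in untreated cells. Pml, which forms the bodies, had 4.80, 3.89 and 4.33 CPM in LPS cells, against 0.602, 0.233 and 0.612 CPM in untreated cells. Daxx, a histone chaperone found in them, had 5.05, 4.45 and 3.90 CPM in LPS cells, against 0.834, 0.746 and 0.680 CPM in untreated cells. The groups did not overlap for these 3, though Pml and Daxx had at most 60 counts in any library of the first table and are measured on 2.6% and 14.4% of their exon bases. Trex1, the exonuclease that clears cytosolic DNA, had 1.85, 2.38 and 1.56 CPM in LPS cells, against 0.788, 0.280 and 0.204 CPM in untreated cells. Lgals9, a galectin, had 2.78, 1.43 and 2.25 CPM in LPS cells, against 0.185, 0.0932 and 0.204 CPM in untreated cells, and its untreated libraries held 4, 2 and 3 counts.

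Ifi27l2a was the smallest change. It had 16.2, 21.4 and 23.0 CPM in LPS cells, against 17.05, 13.4 and 15.1 CPM in untreated cells, a log2 fold change of 0.41 ± 0.14 (edgeR adjusted p = 0.0211). The LPS library of replicate 1 lay below the untreated library of replicate 1. The call was lost without untreated replicate 2 (0.32, edgeR adjusted p = 0.0926) or LPS replicate 3 (0.31, edgeR adjusted p = 0.099), and scaling by library totals alone gave -0.31 (edgeR adjusted p = 0.053). Under that scaling the median of all genes was -0.77 and that of the members 2.72. The members not named above (Xaf1, Ifi35, Ifi44, Ifi47, Trim30a, Rtp4, Slfn5, Tor3a, Epsti1) all rose, between 2.17 for Epsti1 and 5.03 for Ifi47, whose untreated libraries held 4, 4 and 1 counts.

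rHDL before LPS, set against LPS alone, gives the effect of the lipoprotein on the members. Of the 35, 32 were lower in rHDL cells and 0 were higher by edgeR's quasi-likelihood test, which called 36.5% of 8965 genes, 18.4% as lower. The count of 0 higher members stood at 0 also at an unadjusted p under 0.05 and by DESeq2, which called 30 members lower. The median log2 fold change was -0.65, against 0.03 over all genes, and the members ranged from -1.49 to 0.23. In 30 of the 35 every rHDL library was below every LPS-only library, as was so for 24.5% of all genes. In these bulk libraries, fewer cells of a type and less RNA per cell cannot be told apart.

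The RNA sensors fell together. Ddx58 had 772, 574 and 662 CPM in rHDL cells, against 1332, 1029 and 1248 CPM in LPS-only cells, a log2 fold change of -0.85 ± 0.13 (edgeR adjusted p = 0.000189). Dhx58 had 357, 241 and 278 CPM in rHDL cells, against 645, 511 and 592 CPM in LPS-only cells, and changed by -0.998 ± 0.15 (edgeR adjusted p = 0.000123). Ifih1 had 53.9, 47.3 and 53.1 CPM in rHDL cells, against 78.7, 65.0 and 71.1 CPM in LPS-only cells, a smaller log2 fold change of -0.47 ± 0.12 (edgeR adjusted p = 0.006). For all 3 the highest rHDL library lay below the lowest LPS-only library. Zbp1 had 325, 217 and 261 CPM in rHDL cells, against 562, 447 and 522 CPM in LPS-only cells, again with no overlap, and changed by -0.93 ± 0.14 (edgeR adjusted p = 0.000101).

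Among the effectors, Mx1 fell most. It had 100, 83.2 and 97.2 CPM in rHDL cells, against 242, 179.7 and 202 CPM in LPS-only cells, a log2 fold change of -1.15 ± 0.14 (edgeR adjusted p = 1.59e-05). Eif2ak2 had 554, 468 and 526 CPM in rHDL cells, against 872, 742 and 844 CPM in LPS-only cells, and Samd9l had 1619, 1438 and 1541 CPM in rHDL cells, against 2344, 1943 and 2235 CPM in LPS-only cells. Both were below LPS-only cells in every library, with log2 fold changes of -0.67 ± 0.09 and -0.50 ± 0.09 (edgeR adjusted p = 4.33e-05 and 0.000648). Cmpk2 had 3865, 2499 and 3046 CPM in rHDL cells, against 7213, 4292 and 5920.0 CPM in LPS-only cells, and Isg20 had 4.42, 2.64 and 3.31 CPM in rHDL cells, against 9.05, 5.36 and 6.76 CPM in LPS-only cells. Their log2 fold changes were -0.89 ± 0.23 and -1.01 ± 0.26 (edgeR adjusted p = 0.00725 and 0.0064). The membrane proteins fell as well. Bst2 had 342, 238 and 274 CPM in rHDL cells, against 452, 382 and 431 CPM in LPS-only cells, and Ifitm3 had 1406, 1119 and 1126 CPM in rHDL cells, against 1758, 1716 and 1749 CPM in LPS-only cells. These were log2 fold changes of -0.56 ± 0.15 and -0.52 ± 0.10 (edgeR adjusted p = 0.00747 and 0.00094).

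Rsad2, the most abundant member per kilobase under LPS, was less separated. It had 9925, 6529 and 8059.6 CPM in rHDL cells, against 15587, 9502 and 12895 CPM in LPS-only cells, and the highest rHDL library lay above the lowest LPS-only library. Its log2 fold change was -0.63 ± 0.22 (edgeR adjusted p = 0.0366). The call was lost without LPS-only replicate 1 (-0.45, edgeR adjusted p = 0.174), LPS-only replicate 3 (-0.62, edgeR adjusted p = 0.0875), rHDL replicate 2 (-0.50, edgeR adjusted p = 0.14) or rHDL replicate 3 (-0.62, edgeR adjusted p = 0.0914), and with DESeq2 (adjusted p = 0.0537).

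The ISG15 genes spanned a range of values. Usp18 had 776, 456 and 542 CPM in rHDL cells, against 1432, 1007 and 1269 CPM in LPS-only cells, a log2 fold change of -1.06 ± 0.21 (edgeR adjusted p = 0.00123). Isg15 had 1190.0, 819 and 898 CPM in rHDL cells, against 1501, 1235 and 1427 CPM in LPS-only cells, with no overlap and a log2 fold change of -0.52 ± 0.16 (edgeR adjusted p = 0.022). That call was lost without LPS-only replicate 1 (edgeR adjusted p = 0.0831) or 3 (0.0648) and without rHDL replicate 2 (0.0951) or 3 (0.0821). Herc6 had 829, 693 and 772 CPM in rHDL cells, against 1216, 1039 and 1149 CPM in LPS-only cells, and changed by -0.57 ± 0.09 (edgeR adjusted p = 0.000117). Trim25 had 1372, 1223 and 1293 CPM in rHDL cells, against 1448, 1309.6 and 1399.9 CPM in LPS-only cells. These libraries overlapped, and the log2 fold change of -0.10 ± 0.07 (edgeR adjusted p = 0.342, 95% interval -0.24 to 0.05) did not pass the test.

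ADP-ribosylation and nuclear body genes covered a wide range. Parp9 had 689, 570.0 and 609 CPM in rHDL cells, against 1013, 855 and 950.0 CPM in LPS-only cells, and Dtx3l had 782, 712 and 779.8 CPM in rHDL cells, against 1189, 966 and 1079 CPM in LPS-only cells. Their log2 fold changes were -0.59 ± 0.09 and -0.51 ± 0.09 (edgeR adjusted p = 0.000113 and 0.000437). Parp14 had 4993, 4635 and 4995 CPM in rHDL cells, against 6143, 5702 and 5762 CPM in LPS-only cells, the smallest fall that passed, at -0.27 ± 0.08 (edgeR adjusted p = 0.0137). It was not called without LPS-only replicate 1 (edgeR adjusted p = 0.0607) or rHDL replicate 2 (edgeR adjusted p = 0.0623). Sp100 had 339, 262 and 297 CPM in rHDL cells, against 553, 461 and 511 CPM in LPS-only cells, and Pml had 3.48, 2.92 and 3.09 CPM in rHDL cells, against 6.92, 6.36 and 6.10 CPM in LPS-only cells. Their log2 fold changes were -0.76 ± 0.10 and -1.02 ± 0.17 (edgeR adjusted p = 3.94e-05 and 0.000246). Daxx had 1.64, 1.53 and 1.204 CPM in rHDL cells, against 1.28, 1.18 and 1.31 CPM in LPS-only cells, and its log2 fold change of 0.23 ± 0.28 (edgeR adjusted p = 0.566) did not pass.

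Trex1 and Lgals9 had few counts. Trex1 had 0.759, 0.418 and 0.527 CPM in rHDL cells, against 1.38, 0.727 and 0.981 CPM in LPS-only cells, and the log2 fold change of -0.81 ± 0.41 (edgeR adjusted p = 0.143) did not pass. Lgals9 had 1.71, 2.02 and 2.26 CPM in rHDL cells, against 3.41, 3.27 and 2.62 CPM in LPS-only cells, a log2 fold change of -0.64 ± 0.21 (edgeR adjusted p = 0.0273). That call was lost with DESeq2 (adjusted p = 0.057), without a filter on low counts (edgeR adjusted p = 0.0517), and without replicate 1 or 2 of either group (edgeR adjusted p between 0.0587 and 0.102).

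The 3 largest falls among called members were those of Ifi27l2a, Ifi44 and Mx1. Ifi27l2a had 16.9, 12.5 and 14.8 CPM in rHDL cells, against 45.1, 36.8 and 42.3 CPM in LPS-only cells, a log2 fold change of -1.49 ± 0.12 (edgeR adjusted p = 5.66e-07). Ifi44, a GTPase-like protein of the interferon response, had 159, 101 and 142 CPM in rHDL cells, against 372, 232 and 326 CPM in LPS-only cells, a log2 fold change of -1.21 ± 0.20 (edgeR adjusted p = 0.000333). In both, every rHDL library was below every LPS-only library. Epsti1 followed at -1.10 ± 0.19 (edgeR adjusted p = 0.00046). The remaining members also fell. Trim30a, reported as a brake on Toll-like receptor signalling in mice, changed by -0.74 ± 0.10, Slfn5 by -0.71 ± 0.10, Parp12 by -0.70 ± 0.10, Tor3a by -0.65 ± 0.12, Ifi35 by -0.62 ± 0.14 and Xaf1 by -0.53 ± 0.10, with edgeR adjusted p of at most 0.00341. Ifi47, an interferon-inducible GTPase, changed by -0.57 ± 0.17 (edgeR adjusted p = 0.0187) and Rtp4 by -0.33 ± 0.12 (edgeR adjusted p = 0.0436). Leaving out LPS-only replicate 1 or rHDL replicate 2 ended the calls of Rsad2, Isg15, Ifi47, Parp14, Rtp4 and Lgals9 and left 26. Rtp4 alone was also lost without loaded replicate 1 (edgeR adjusted p = 0.0504), loaded replicate 3 (0.0568) or loaded rHDL replicate 3 (0.0512), and with Rsad2 and Isg15 without replicate 3 of LPS-only or rHDL cells. Scaling by library totals alone ended the calls of Ifi47, Parp14, Rtp4 and Lgals9 and left 28.

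Size of response to LPS and size of fall with rHDL were set side by side for the 35 members. Pearson's r was -0.091 and Spearman's rho -0.159 across members, from tables with no library in common, as a description without a test. Members of a table share their libraries. Members with the response element core in a promoter window had a median rHDL log2 fold change of -0.64, and all 10 tested were lower. Members with a window but no core had a median of -0.66, and 13 of 16 were lower. Of all genes tested 18.4% were lower with rHDL, and the shares among all genes with and without the core were not counted.

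After cholesterol loading, rHDL was set against no rHDL, again under LPS. No member passed in either direction by edgeR's quasi-likelihood test, which called 1.02% of 8965 genes, 0.424% as higher and 0.591% as lower. At an unadjusted p under 0.05 there were 4 of the 35 members, against 1044 of all 8965 genes tested, a similar share. The 4 were Ifi44, Dtx3l and Trim25 with positive values and Ifi27l2a with a negative one, and DESeq2 called 0 members. The median log2 fold change was 0.16, against 0.00 over all genes. It was positive for 32 members and negative for Ifi27l2a, Ifi47 and Lgals9. Every loaded rHDL library was above every loaded library in 2 members, against 7.23% of all genes, and below in 1, against 8.10%. With the replicate number as a block 6 members passed, with Rsad2, Ifi44, Dtx3l, Cmpk2 and Epsti1 higher and Ifi27l2a lower. The labels do not say what these numbers share, and they were not taken as pairs. How many of all genes passed with the block is not given here.

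The sensors show how far the groups overlapped. Ddx58 had 1186, 932 and 1227 CPM in loaded rHDL cells, against 1103, 872 and 1049.6 CPM in loaded cells. Dhx58 had 598, 440.1 and 559 CPM in loaded rHDL cells, against 494, 385 and 497 CPM in loaded cells, and Zbp1 had 529, 417 and 507 CPM in loaded rHDL cells, against 474, 389 and 455 CPM in loaded cells. Ifih1 had 61.2, 53.4 and 76.0 CPM in loaded rHDL cells, against 64.7, 52.4 and 56.5 CPM in loaded cells. In each of these genes the libraries of both groups overlapped. The log2 fold changes were 0.14 ± 0.13, 0.22 ± 0.15, 0.14 ± 0.14 and 0.13 ± 0.12 (edgeR adjusted p of at least 0.626).

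Effectors behaved likewise. Rsad2 had 13102, 7159 and 12221 CPM in loaded rHDL cells, against 8839, 6544 and 8281 CPM in loaded cells, a log2 fold change of 0.46 ± 0.22 (edgeR unadjusted p = 0.0569, adjusted p = 0.448). Its approximate 95% interval, 0.03 to 0.89, is narrower than this test implies and leaves out 0 although the unadjusted p is over 0.05. Cmpk2 had 6351, 3422 and 5818 CPM in loaded rHDL cells, against 4508, 3230.5 and 4286 CPM in loaded cells, and Mx1 had 171, 142 and 213 CPM in loaded rHDL cells, against 184, 156 and 168 CPM in loaded cells. Mx1 had one of the smallest values, 0.05 ± 0.14 (edgeR adjusted p = 0.915, 95% interval -0.21 to 0.32). Isg20 had 7.69, 4.67 and 7.32 CPM in loaded rHDL cells, against 5.96, 3.77 and 4.86 CPM in loaded cells, and Eif2ak2 had 747, 686 and 841 CPM in loaded rHDL cells, against 698, 645 and 664 CPM in loaded cells. Samd9l had 1868, 1699 and 2113 CPM in loaded rHDL cells, against 1840.3, 1610.3 and 1694 CPM in loaded cells. Bst2 had 533, 351 and 413 CPM in loaded rHDL cells, against 389.6, 333 and 399 CPM in loaded cells, and Ifitm3 had 2017, 1601 and 1619 CPM in loaded rHDL cells, against 1723, 1599 and 1680.4 CPM in loaded cells. In these 8 genes the libraries of loaded rHDL cells and loaded cells overlapped.

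The ISG15 and ADP-ribosylation genes lay close together. Isg15 had 1832, 1144 and 1316 CPM in loaded rHDL cells, against 1313, 1063 and 1242 CPM in loaded cells, and Usp18 had 1442, 835 and 1153 CPM in loaded rHDL cells, against 1134, 804 and 1032 CPM in loaded cells. Herc6 had 1160.3, 1029 and 1191 CPM in loaded rHDL cells, against 1092, 987 and 1050.2 CPM in loaded cells, and Trim25 had 1127, 1027 and 1223 CPM in loaded rHDL cells, against 1018, 961 and 1037 CPM in loaded cells. Parp9 had 933, 802 and 932 CPM in loaded rHDL cells, against 836, 766 and 810.1 CPM in loaded cells, and Parp14 had 5069, 5451 and 6257 CPM in loaded rHDL cells, against 5105, 5066 and 4929 CPM in loaded cells. All 6 overlapped. Dtx3l had 979.9, 914 and 1122 CPM in loaded rHDL cells, against 902, 827 and 877 CPM in loaded cells, without overlap, and its log2 fold change of 0.21 ± 0.09 (edgeR adjusted p = 0.362) did not pass. Of the nuclear body genes, Sp100 had 490.1, 435 and 518 CPM in loaded rHDL cells, against 477, 413 and 448 CPM in loaded cells, Pml had 4.75, 4.86 and 6.98 CPM in loaded rHDL cells, against 4.65, 4.49 and 4.39 CPM in loaded cells and Daxx had 1.64, 1.56 and 1.62 CPM in loaded rHDL cells, against 1.63, 0.816 and 0.747 CPM in loaded cells. Pml did not overlap, at a log2 fold change of 0.30 ± 0.17 (edgeR adjusted p = 0.529). Trex1 had 1.12, 0.584 and 0.596 CPM in loaded rHDL cells, against 0.245, 0.612 and 0.747 CPM in loaded cells, from 3 to 13 counts a library, and Lgals9 had 1.81, 2.82 and 2.56 CPM in loaded rHDL cells, against 2.94, 2.45 and 2.43 CPM in loaded cells. Ifi27l2a had 20.3, 15.4 and 18.7 CPM in loaded rHDL cells, against 22.8, 24.7 and 25.3 CPM in loaded cells, every loaded rHDL library below every loaded one, at a log2 fold change of -0.42 ± 0.13 (edgeR adjusted p = 0.168, 95% interval -0.67 to -0.17).

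**Figure D2:**
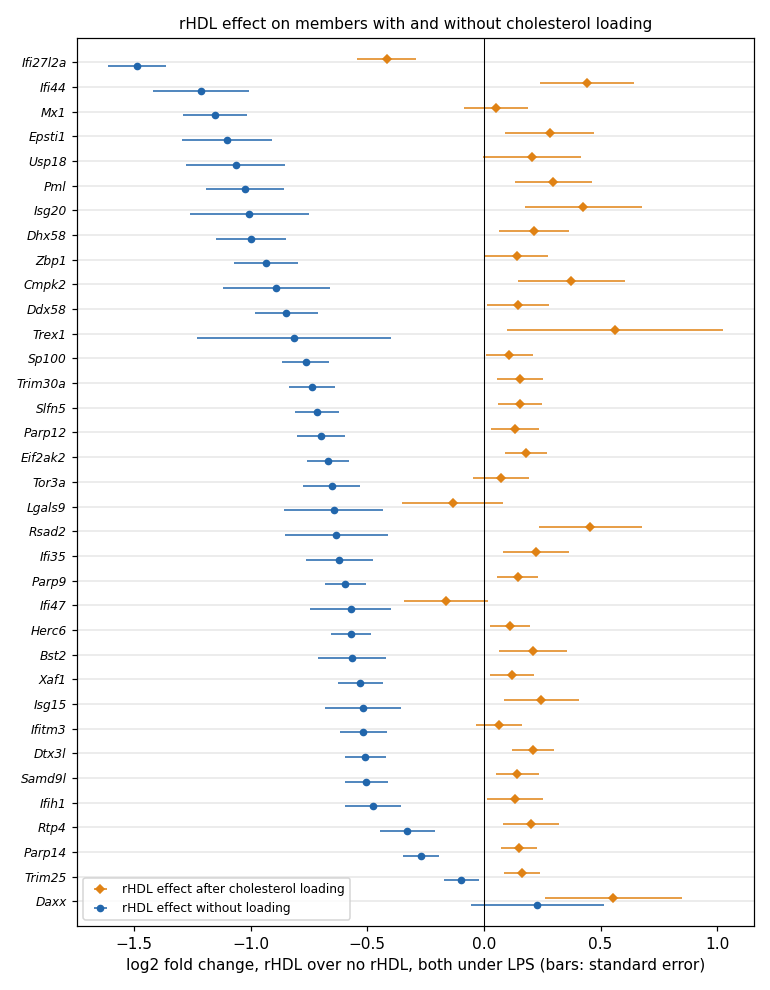
Each row is 1 of the 35 tested members and the horizontal axis is the log2 fold change of rHDL over no rHDL under LPS. Diamonds are the effect after cholesterol loading and circles the effect without loading, with bars for the standard error. Circles lie left of 0 for 34 members, and diamonds lie right of 0 for 32.

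Whether the rHDL effect differed with loading was tested directly as the difference between the 2 effects. The difference was higher for 30 of the 35 members and lower for 0 by edgeR's quasi-likelihood test, which called 30.2% of 8965 genes, 16.0% as higher. The count of 0 lower stood at 0 also at an unadjusted p under 0.05 and by DESeq2. Its median over the members was 0.84 on the log2 scale, against -0.03 over all genes, and it was positive in all 35. The largest differences that passed were those of Ifi44 (1.65 ± 0.29, edgeR adjusted p = 0.000673), Isg20 (1.43 ± 0.36, edgeR adjusted p = 0.00763) and Epsti1 (1.38 ± 0.27, edgeR adjusted p = 0.00159). Daxx (0.33 ± 0.41), Ifi47 (0.41 ± 0.25), Lgals9 (0.51 ± 0.30), Trex1 (1.38 ± 0.62) and Trim25 (0.26 ± 0.11) did not pass, with edgeR adjusted p of at least 0.0828. Ifi27l2a had a negative rHDL value both after loading and without it, and the difference was 1.07 ± 0.18 (edgeR adjusted p = 0.00046). Leaving out single libraries left 28 to 31 calls. Isg15 was lost without LPS-only replicate 1 (edgeR adjusted p = 0.0547), rHDL replicate 2 (0.0558), rHDL replicate 3 (0.0551) or loaded replicate 2 (0.0581). Rtp4 was lost without replicate 1 or 3 of LPS-only cells, 2 or 3 of rHDL cells, 2 or 3 of loaded cells, or 1 of loaded rHDL cells (edgeR adjusted p between 0.0549 and 0.0723). Trim25 passed without rHDL replicate 1 (0.32, edgeR adjusted p = 0.0437) or loaded rHDL replicate 2 (0.33, edgeR adjusted p = 0.0284).

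Loading itself, set against no loading under LPS, gave smaller values. By edgeR's quasi-likelihood test 4 members were lower and 0 higher, where 8.57% of 8965 genes were called, 4.57% as lower. The count of 0 higher stood at 0 also at an unadjusted p under 0.05 and by DESeq2, which called 6 lower. All 35 values were negative, with a median of -0.27, against 0.01 over all genes, and in 14 members every loaded library was below every LPS-only library, as was so for 16.1% of all genes. The opposite, every loaded library above, was seen in 0 members and 16.8% of all genes. Ifi27l2a had 22.8, 24.7 and 25.3 CPM in loaded cells, against 45.1, 36.8 and 42.3 CPM in LPS-only cells, a log2 fold change of -0.77 ± 0.12 (edgeR adjusted p = 0.0013). Trim25 had 1018, 961 and 1037 CPM in loaded cells, against 1448, 1309.6 and 1399.9 CPM in LPS-only cells, a log2 fold change of -0.46 ± 0.08 (edgeR adjusted p = 0.00182). Trim25 was thus called with loading and not with rHDL, and the difference between those 2 contrasts, which share the LPS-only libraries, was not tested. Samd9l had 1840.3, 1610.3 and 1694 CPM in loaded cells, against 2344, 1943 and 2235 CPM in LPS-only cells, at -0.34 ± 0.09 (edgeR adjusted p = 0.0345). Dtx3l had 902, 827 and 877 CPM in loaded cells, against 1189, 966 and 1079 CPM in LPS-only cells, at -0.31 ± 0.09 (edgeR adjusted p = 0.0434). Leaving out LPS-only replicate 1 or 3, rHDL replicate 3, or loaded replicate 2 or 3 left 2 calls, Ifi27l2a and Trim25, while leaving out LPS-only replicate 2 or loaded rHDL replicate 1 gave 7 calls, and loaded rHDL replicate 3 gave 8. Dtx3l was also lost without rHDL replicate 2 (edgeR adjusted p = 0.0501) or loaded replicate 1 (edgeR adjusted p = 0.0776). With the replicate number as a block 22 more members were lower with loading, though the labels do not say what these numbers share. How many of all genes were lower with that block is not given here, so the count has no background beside it. Loaded replicate 3 had 25.7 CPM over 4 stromal markers, with Pdgfrb at 0, against 0.605 to 5.25 CPM in the other 11 libraries of the second table, and 160 CPM over the conventional dendritic markers, against 77.7 and 97.8 CPM in the other loaded libraries. Without it, 0 members were called with rHDL after loading and 29 were higher in the difference.

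Contrasts of the second table share control libraries, so their values are given side by side. As a percentage of the mean of LPS-only cells, the median member stood at 93.0% in loaded rHDL cells (43.7% to 128%), 82.9% in loaded cells (51.9% to 95.8%) and 63.7% in rHDL cells (35.6% to 116%). Over all 5 tests, 27 members were higher with LPS, lower with rHDL, not called with rHDL after loading, not called with loading, and higher in the difference. Ifi27l2a, Samd9l and Dtx3l had the same calls and were lower with loading too. Ifi47 and Lgals9 were called with LPS and rHDL only, Daxx and Trex1 with LPS only, and Trim25 with LPS and loading only. The share of all genes with each of these patterns was not counted. Of all genes tested, 1.02% were called with rHDL after loading and 8.57% with loading, so no call in those tests is common. The rHDL effect is also a part of the difference, so calls in those tests are not independent.

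**Figure D3:**
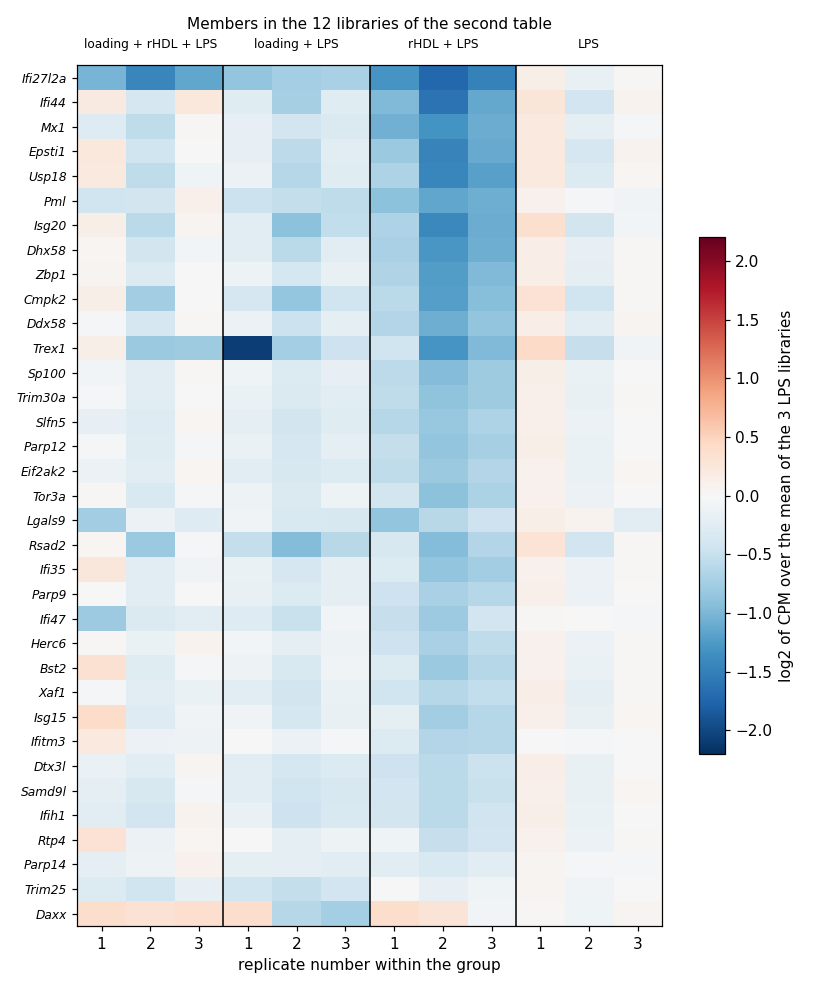
Rows are the 35 tested members, ordered by rHDL effect, and columns the 12 libraries of the second table, with replicate numbers below and groups above. Colour gives the log2 of CPM over the mean of the 3 LPS-only libraries, blue for lower and red for higher. The rHDL block is blue in most cells of every row except Daxx, palest in Trim25, and replicate 2 is the lowest column of its group in most rows.

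Libraries of 1 group differed in a way that ran across the members. Replicate 2 had the lowest value of its group for 31 of 35 members in loaded rHDL cells, 29 in loaded cells, 33 in rHDL cells and 32 in LPS-only cells. Over all genes tested, replicate 2 was lowest in 29.9%, 37.7%, 34.0% and 35.7% in the same order of groups. Replicate 1 had the highest value for 18, 26, 32 and 34 members, against 3425, 2906, 3550 and 3275 of all 8965 genes. Without replicate 2 in all 4 groups, an alternative chosen after the data were seen, 28 members were lower with rHDL and 0 higher. The share of all genes called in that alternative is not given here.

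The counts on all members were also summed. They made up 3.34% to 3.89% of the counts of a library in LPS cells, against 0.400% to 0.451% in untreated cells. In the second table the share was 3.80% to 4.85% in loaded rHDL cells, against 3.61% to 4.16% in loaded cells. It was 3.05% to 3.80% in rHDL cells, against 4.25% to 5.32% in LPS-only cells, so that the highest rHDL library lay below the lowest LPS-only library. In the groups given LPS, most of this sum comes from a few abundant genes, such as Rsad2, Parp14, Cmpk2 and Slfn5. In untreated cells Ifitm3 was the largest part, at a mean of 707 CPM.

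**Figure D4:**
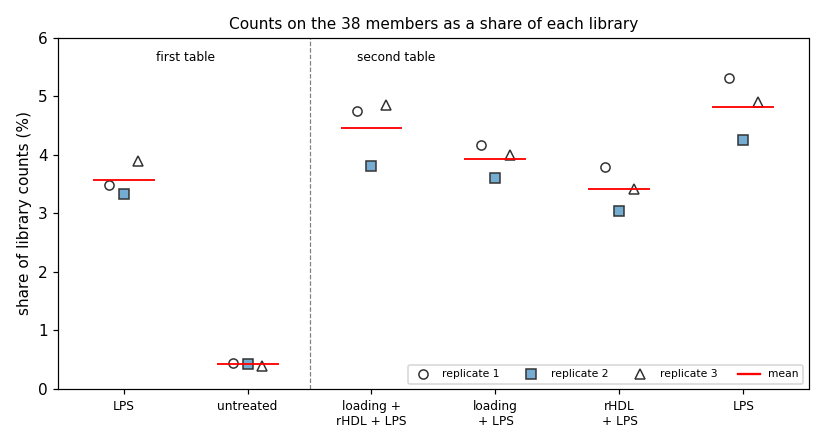
The vertical axis is the percentage of a library's counts that fall on the 38 members, and each symbol is 1 library, shaped by replicate number, with a line at the mean. The first table (LPS, untreated) is on the left and the second table on the right. Replicate 2 is the lowest library of each group of the second table, and rHDL lies below LPS alone.

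Other genes of the interferon route were read from a list of 31 that holds ligands, receptors, kinases, transcription factors and the upstream sensing routes. With LPS, 21 of 23 tested were higher, against 35.3% of all genes, and Irf5 and Traf3 did not pass. Ifnb1, Socs1, Irf1 and Irf9 passed the low-count filter only through their counts in LPS cells, so the filter itself favoured a rise in them. Their untreated libraries held 3, 0 and 0 counts (Ifnb1), 0 in each (Socs1), 9, 16 and 4 (Irf1) and 15, 16 and 5 (Irf9). With rHDL, 11 of 22 were lower, against 18.4% of all genes, and the other 11 did not pass. With rHDL after loading the smallest edgeR adjusted p of the 22 was 0.0651, for Ikbke. With loading Ifnar1, Stat2 and Ikbke were lower, against 4.57% of all genes. The difference of rHDL effects was higher for 10 of the 22, against 16.0% of all genes. Ifnb1, the interferon that macrophages release first, had 8.08, 13.7 and 15.1 CPM in LPS cells, against 0.139, 0 and 0 CPM in untreated cells. In the second table Ifnb1 had 2.40, 1.60 and 1.66 CPM in rHDL cells, against 1.81, 1.45 and 1.64 CPM in LPS-only cells, a log2 fold change of 0.23 ± 0.37 that did not pass (edgeR adjusted p = 0.665). Its rHDL libraries held 22 to 38 counts.

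Both receptor chains were lower with rHDL, as were Stat2, Irf9 and Irf8 among the transcription factors, while Irf1 and Irf5 did not pass. Ifnar1, a chain of the interferon receptor, had 392.2, 419 and 403 CPM in rHDL cells, against 721, 718 and 691 CPM in LPS-only cells. Its log2 fold change was -0.81 ± 0.07 (edgeR adjusted p = 4.96e-07), and that of the other chain, Ifnar2, was -0.66 ± 0.07 (edgeR adjusted p = 5.24e-06). Stat2 had 763, 668 and 735 CPM in rHDL cells, against 1221, 1047 and 1115 CPM in LPS-only cells, at -0.64 ± 0.09 (edgeR adjusted p = 4.86e-05). Irf9, with 29 to 44 counts a library in rHDL and LPS-only cells, changed by -0.60 ± 0.19 (edgeR adjusted p = 0.0236). Tlr3, the endosomal RNA receptor, changed by -1.15 ± 0.16 (edgeR adjusted p = 4.4e-05), and Irf8 by -1.24 ± 0.17 (edgeR adjusted p = 6.29e-05). Irf7 has 0 exon bases of its own and was not tested.

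Markers of the cells moved with rHDL as well. The 10 macrophage markers summed to 12710 to 15260 CPM in rHDL cells, against 22550 to 24310 CPM in LPS-only cells. After loading they summed to 19720 to 23730 CPM in loaded rHDL cells, against 22200 to 23940 CPM in loaded cells. Lyz2 was the largest part of the sum, with 5690 to 7933 CPM in rHDL cells, against 12920 to 14460 CPM in LPS-only cells. Emr1, Csf1r, Mertk, Fcgr1, Mrc1 and Spi1 were lower with rHDL too. Fcgr1 had 95.1 to 181 CPM in rHDL cells, against 657 to 882 CPM in LPS-only cells. Only Cd68 and Cd14 were higher. Cd68 had 461 to 500.2 CPM in rHDL cells, against 316 to 357 CPM in LPS-only cells. Cd14 had 1965 to 2070 CPM in rHDL cells, against 1734 to 1959 CPM in LPS-only cells. Conventional dendritic cell markers summed to 102 to 117 CPM in rHDL cells, against 70.6 to 94.99 CPM in LPS-only cells. The part of these markers in the members' fall was not tested.

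The authors' deposited tables list the genes that passed their own thresholds. For rHDL against LPS alone the authors' deposited table lists 1609 genes, 12 of them members and all 12 lower. Among them the authors' deposited table gives log2 fold changes of -1.50 for Ifi27l2a, -1.22 for Ifi44, -1.15 for Mx1 and -0.86 for Ddx58. After loading, the authors' deposited table lists 47 genes and 0 members.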

How the data were processed

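Per the labels, RNA was selected by poly-dT pulldown. Per the submitters' processing notes, the tools were cutadapt, HISAT2, featureCounts of Subread and DESeq2, with the build mm10. No version is given there. The deposited files hold raw read counts for 32850 rows of 18 libraries, which the authors did not normalise, per the file headers and values. The authors' deposited comparison tables also give each listed gene's log2 ratio and adjusted p-value.

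Rows were summed per symbol. Genes were kept by filterByExpr (minimum count 10), scaled by TMM and tested with edgeR 4.0.16 quasi-likelihood F tests in R 4.3.3 (limma 3.58.1), with Benjamini-Hochberg adjustment over all genes tested and a call at 0.05. The tables were fitted apart, and the 12 libraries of the second share 1 fit. CPM are counts scaled to library size after TMM. The 95% intervals are a normal approximation from the standard error, and with so few libraries they are narrower than the F test implies. Own exon bases are those that no other row of the deposited annotation covers on either strand. Contrasts were LPS over untreated, rHDL over none, the same after loading, the difference of these effects, and loading over none. Alternatives were DESeq2 1.42.0, its size factors, library totals alone, no low-count filter, the highest row per symbol, the replicate number as a block, 2 groups alone, and each library left out. Scripts were tested on simulated data. Members named with values in every library follow a panel set by role, plus the 3 largest called rises and falls and the members that did not pass where nearly all did. The genes, lists and tests were chosen with earlier results of these data known, so no test is made over the list.

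Depth was 9464916 to 16835472 counts per library, and the replicate numbers were not taken as pairs.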

Additional observations from a re-analysis of the deposited data

Results flagged for a closer look

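The rHDL effect differed between loaded cells and cells without loading, by edgeR's test of the difference itself at an adjusted p under 0.05, in 30 members. The values are the rHDL log2 fold change after loading minus that without loading. Among sensors the difference was 0.99 for Ddx58, 0.61 for Ifih1, 1.21 for Dhx58 and 1.07 for Zbp1. Among effectors it was 1.09 for Rsad2, 1.26 for Cmpk2, 1.21 for Mx1, 0.85 for Eif2ak2, 0.65 for Samd9l, 1.43 for Isg20, 0.77 for Bst2 and 0.58 for Ifitm3. In the ISG15 system it was 0.76 for Isg15, 1.27 for Usp18 and 0.68 for Herc6. Among ADP-ribosylation genes it was 0.74 for Parp9, 0.83 for Parp12, 0.42 for Parp14 and 0.72 for Dtx3l. Nuclear body genes had 0.87 for Sp100 and 1.32 for Pml. The others were Xaf1 at 0.65, Ifi35 at 0.84, Ifi44 at 1.65, Trim30a at 0.89, Rtp4 at 0.53, Slfn5 at 0.87, Tor3a at 0.72, Ifi27l2a at 1.07 and Epsti1 at 1.38.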

How the results depend on the processing

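The 35 members higher with LPS, 32 lower with rHDL and 30 higher in the difference stayed within 34 to 35, 26 to 32 and 28 to 31 when single libraries were left out. Scaling by library totals gave 34, 28 and 28, with medians of all genes of -0.77, 0.14 and -0.20. For rHDL after loading, the replicate block gave 5 members higher and 1 lower. For loading, the members lower were 9 without a low-count filter, 26 with the replicate block, 10 with 2 groups alone, and 2 to 8 when single libraries were left out. The share of all genes called is not given here beside these counts. The replicate numbers were not taken as pairs, since the labels do not say what they share and no comparison tested had every same-numbered correlation of deviations over 0.1. In the second table these ran from -0.03 to 0.44, with 28 of 36 comparisons best with their own number, a hint of pairing from the data and not from the design. In the first table they ran from -0.08 to 0.07. Values that changed sign had adjusted p over 0.05 there. With library totals these were Ifi27l2a with LPS (-0.307), Trim25 with rHDL (0.0195), Mx1 with rHDL after loading (-0.00583) and Ifitm3 with loading (0.0167). When single libraries were left out, rHDL after loading ran from -0.109 to 0.184 for Mx1, -0.0139 to 0.244 for Ifih1, -0.279 to 0.00219 for Ifi47, -0.0474 to 0.126 for Ifitm3 and -0.257 to 0.0387 for Lgals9, and loading from -0.676 to 0.00865 for Daxx. The cause of these changes was not tested. At this depth Trex1, Daxx, Lgals9, Pml and Ifi47, counted on under 20% of their exon bases, had few counts per library.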
